A study of Mus musculus with 4 samples.

Results

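The 45 genes described here encode the kinesin motors, the kinesin light chains, the kinesin-associated protein and the TRAK adaptors. They were chosen by gene symbol (*Kif* or *Kifc* with a number, *Kifap3*, *Klc1* to *Klc4*, *Trak1* and *Trak2*) from the 16537 genes measured. By their textbook roles they fall into 12 transport kinesins of the *Kif1*, *Kif3*, *Kif5*, *Kif13* and *Kif16* families, 12 mitotic kinesins, 5 light chains and associated proteins, 2 TRAK adaptors and 14 other kinesins. The kinesin-7 motor gene *Cenpe* carries another symbol and was read beside the mitotic kinesins as a partner.

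Kinesins are motors that hydrolyze ATP to step along microtubules, most of them toward the plus ends that face the cell edge. Transport kinesins carry vesicles, mitochondria, proteins and mRNAs, often through light chains or adaptors such as the TRAK proteins, which link kinesin-1 to mitochondria. Mitotic kinesins build the spindle, align chromosomes and complete cytokinesis. KIF1C, a kinesin-3 motor, moves vesicles and also mRNAs that accumulate at protrusions, and the study followed its own mRNA in these cells.

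The RNA came from YUMM1.7, a mouse melanoma line with engineered changes that include activated *Braf* and inactivated *Cdkn2a*, labeled wild type in both groups because no further edit was made. Cells were plated overnight on fibronectin-coated membranes with 1-µm pores, after which the cell bodies were scraped from the top and the protrusions were lysed from the membrane. Each fraction had 2 replicate libraries of ribosomal RNA-depleted total RNA, each from 6 pooled inserts, so the cell body fraction held the nuclei and neither fraction resolved single cells. The libraries held 25854948 to 30994908 reads assigned to genes.

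Among the melanocyte markers examined, *Mitf* lay at 5.12 to 6.17 TPM (a gene's share of the reads of a library after scaling for length). *S100b* lay at 2.55 to 5.86 TPM, while *Tyr* reached at most 0.762 and *Pmel* at most 0.0696 TPM. *Sox10*, *Tyrp1*, *Dct* and *Mlana* were not analysed here. The immune marker measured, *Ptprc*, reached at most 0.0785 TPM, and the epithelial markers measured summed to at most 0.0462 TPM in a library. The protrusion library of replicate 1 stood apart in the sum of 10 liver genes, which was 61.4 TPM there and 6.1 to 20.6 TPM in the other libraries. Of the 10, only *Ass1* was higher in the protrusion library of replicate 2, at 18.4 TPM against 11.5 TPM in that of replicate 1. All others were highest in the protrusion library of replicate 1, where the albumin mRNA, *Alb*, was at 28.4 TPM against at most 0.46 TPM elsewhere. The main calls are therefore also given without this library. A sum of 5 fibroblast markers, carried by *Pdgfra* and *Col3a1*, was 330 and 497 TPM in cell bodies and 213 and 203 TPM in protrusions.

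Of the 45 mRNAs, 33 had a mean of at least 1 TPM and were tested. 3 of the 33 were higher in protrusions, *Kif1c*, *Trak1* and *Trak2*, and 2 were lower, *Kif20b* and *Kif18a* (limma on log2(TPM + 0.5), Benjamini-Hochberg adjusted p under 0.05 over 11400 genes). These are 9.09% and 6.06% of the tested members, where 2.99% of all 11400 genes tested were called higher and 4.25% lower. The members lower as a whole are thus near the background share. With the replicate number as a block, 3 members were higher and 6 lower, against 8.08% and 13.3% of all genes. A limma voom fit of the recovered reads called 3 higher and 3 lower, against 6.82% and 7.8%. In 7 members both protrusion values lay above both cell body values and in 13 they lay below, or 21.2% and 39.4% of members, close to the 26.4% and 37.0% of all genes tested. The members are described by role in what follows.

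**Figure D1:**
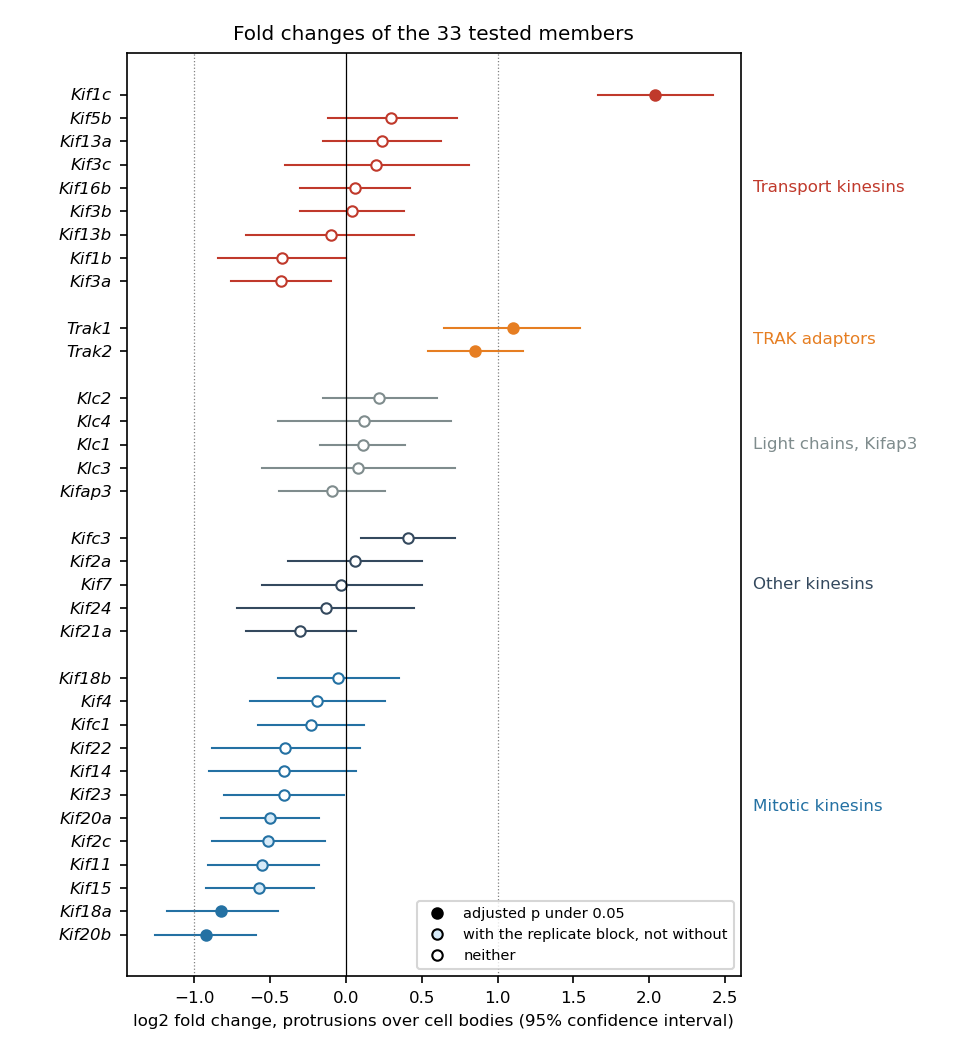
Change between fractions on the log2(TPM + 0.5) scale (x axis, protrusions minus cell bodies) for the 33 tested members (y axis), grouped by role, with 95% confidence intervals from limma as bars. Filled points passed an adjusted p of 0.05, light blue points passed it with the replicate block but not without it, and dotted lines mark a log2 fold change of -1 and 1. *Kif1c* stands alone at 2.04, both TRAK adaptors lie at 0.85 and above, and the 12 mitotic kinesins lie between -0.92 and -0.05.

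*Kif1c* (chr11:70700547-70731970, mm10, plus strand) was the most enriched member. Its mRNA was at 38.5 and 29.8 TPM in cell bodies and at 136 and 146 TPM in protrusions, replicates 1 and 2. The groups were far apart, and the values stood on 2613 to 16808 reads. The mean was 34.2 ± 6.16 TPM in cell bodies against 141 ± 7.28 TPM in protrusions (SD over 2 libraries), a 4.11-fold increase. The log2 fold change was 2.04 (SE 0.16, 95% interval from 1.66 to 2.42, limma adjusted p = 0.0273, and 6.13e-05 with the replicate block). Without the protrusion library of replicate 1, in which the liver genes were found, it was 2.09 with a limma adjusted p of 0.0469. Leaving out the protrusion library of replicate 2 gave a limma adjusted p of 0.0805, and leaving out the cell body library of replicate 1 or of replicate 2 gave 0.0899 and 0.162, none of which passed. In those 3 fits 0 of the 11400 genes passed, and without the protrusion library of replicate 1, 0.123% were higher and 1.26% lower. Among the 45 members, *Kif1c* ranked 12 and 15 by TPM in the cell body libraries and 2 in each protrusion library, behind *Kif5b*. The study chose *Kif1c*, as well as *Trak2*, as a candidate on these libraries, so their enrichment here is not independent of that choice. The microRNA gene *Mir6925* lies inside *Kif1c*, and reads of the host and of the microRNA gene cannot be told apart with certainty.

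The *Kif1c* 3′ UTR carries the stretch of G and A bases at which the study aimed its guides, and these sequences are shown because the study's later cell lines rest on them. The guides below were matched to the GENCODE transcript Kif1c-203, whose 3′ UTR is 3085 bases long (GRCm38, chromosome 11, plus strand). Guide 1 lies proximal, at chr11:70728947-70728966, guide 5 at chr11:70729016-70729035 and guide 4 at chr11:70729070-70729089. Capitals mark the PAM, the bases that Cas9 requires beside its target.
Guide 1: caagaagccctggggcaaggAGG
Guide 5: gaagatgccagagagtgtgcTGG
Guide 4: ccaggagcaaaccaaagtcaAGG
Counted from the first base of the 3′ UTR, the expected cuts, 3 bases before the PAM, fall after bases 84, 153 and 207. The 123 bases between the cuts of guides 1 and 4 hold 77.2% G or A, whereas the whole 3′ UTR holds 48.2%. The 69 bases between guides 1 and 5 hold 79.7%, and the 54 bases between guides 5 and 4 hold 74.1%. These intervals follow from the expected cuts and are not the deletions that the study mapped in its cell lines.

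The richest 30 bases of each interval are printed next, with the longest unbroken run of G and A in capitals. The window between guides 1 and 5 (chr11:70728971-70729000) has 27 G or A bases of 30 and is the richest of the whole 3′ UTR. The window between guides 5 and 4 (chr11:70729037-70729066) has 26.
Between guides 1 and 5: cagaaagcagagagcAAGAGAGAGGGAAGG
Between guides 5 and 4: ggaggctGAGGGAAGGAAGAGGGcgcggag
Each interval between neighboring cuts thus holds a purine-rich stretch of its own.

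Of the closest relatives of *Kif1c*, *Kif1a* and *Kif1b*, only *Kif1b* could be compared, and its mRNA was not enriched. *Kif1b*, whose motor carries mitochondria and synaptic vesicle precursors, was at 24.6 and 23.4 TPM in cell bodies and at 20.4 and 15.5 TPM in protrusions, on 3973 to 5689 reads. Both protrusion values lay below both cell body values, and the log2 fold change was -0.42 (SE 0.17, 95% interval from -0.84 to just below 0), which did not pass the test (limma adjusted p = 0.157, and 0.0906 with the replicate block). *Kif1a*, the neuronal motor of synaptic vesicle precursors, had 0 reads in each cell body library and 1 read in each protrusion library, so no fold change of *Kif1a*, and no difference from that of *Kif1c*, could be measured at this depth.

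*Kif1c* was 1.57 and 1.27 times as abundant as *Kif1b* in the cell body libraries and 6.66 and 9.40 times as abundant in the protrusion libraries. Of the summed TPM of *Kif1a*, *Kif1b* and *Kif1c*, *Kif1c* took 61.1% and 56.0% in cell bodies and 86.9% and 90.4% in protrusions. The fold change of *Kif1c* exceeded that of *Kif1b* by 2.46 on the log2 scale (SD 0.55 over the replicate numbers, which gave 2.07 and 2.85). The groups of ratios did not overlap, yet a two-sided exact permutation test over 2 against 2 libraries gave p = 0.333, the smallest value that the 6 arrangements allow. Under the other settings the difference ranged from 2.22 to 2.70.

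**Figure D2:**
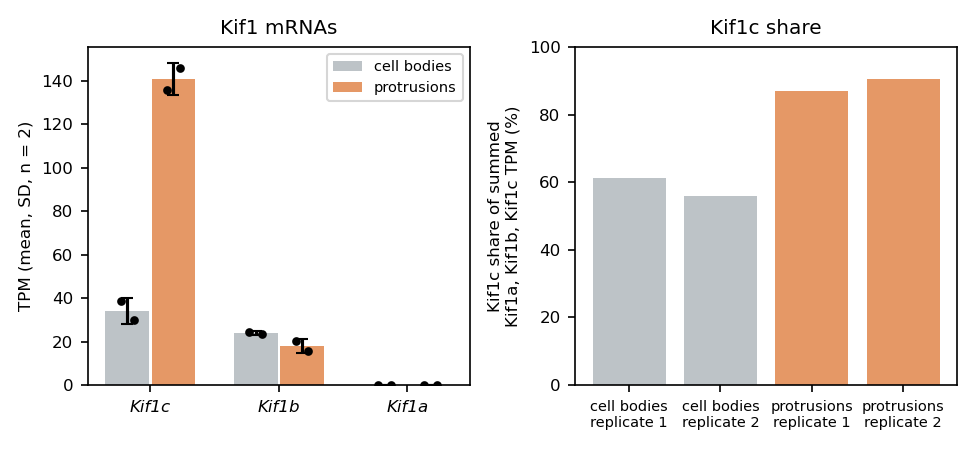
Left, TPM of *Kif1c*, *Kif1b* and *Kif1a* in cell bodies (gray) and protrusions (orange), with bars for the mean, error bars for the SD and points for the 2 libraries of a group. Right, the share of *Kif1c* in the summed TPM of the 3 genes in each library, which lies at 56.0% to 61.1% in cell bodies and at 86.9% to 90.4% in protrusions.

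Both TRAK adaptors were enriched in protrusions. *Trak1* was at 5.39 and 6.90 TPM in cell bodies and at 13.2 and 14.1 TPM in protrusions, on 406 to 1169 reads. The fractions did not overlap, and its mRNA rose 2.14-fold (log2 fold change 1.10, SE 0.18, limma adjusted p = 0.0367, and 0.00333 with the replicate block). *Trak2* was at 38.1 and 38.0 TPM in cell bodies and at 74.4 and 64.2 TPM in protrusions. The cell body values were nearly equal, and both protrusion values were well above them. *Trak2* rose 1.81-fold (log2 fold change 0.85, SE 0.13, limma adjusted p = 0.0349, and 0.00222 with the replicate block). TRAK1 and TRAK2 join kinesin-1 to the mitochondrial GTPase Miro and can also bind dynein. *Trak2* mRNA was 4.55 to 7.07 times as abundant as *Trak1* in every library. Without the protrusion library of replicate 1 the log2 fold changes were 1.14 for *Trak1* and 0.75 for *Trak2*, neither of which passed (limma adjusted p = 0.0836 and 0.0772).

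The mRNAs of the motor and anchors that work with the TRAK adaptors did not pass the test. *Kif5b* (chromosome 18), the widely expressed heavy chain of kinesin-1, was at 169 and 144 TPM in cell bodies and at 222 and 166 TPM in protrusions. The highest value was the protrusion library of replicate 1 and the groups overlapped, with a log2 fold change of 0.30 (SE 0.17, limma adjusted p = 0.283). After a correction for GC content its log2 fold change was 0.60 (limma adjusted p = 0.0779, and 0.00635 with the replicate block). *Kif5b* made up 99.87% to 99.97% of the summed *Kif5* TPM, since the neuronal heavy chains *Kif5a* and *Kif5c* had at most 10 reads in a library. The Miro genes *Rhot1* and *Rhot2*, whose products anchor TRAK on mitochondria, had log2 fold changes of -0.01 and 0.04. Of 7 tested genes of mitochondrial transport, 0 passed (limma), 1 in each direction had an unadjusted p under 0.05, and limma voom on recovered reads called 1. Their median log2 fold change was 0.02, where the median of all genes tested was -0.07. With the block *Mfn2*, the mitofusin that binds Miro, was higher (log2 fold change 0.51, limma adjusted p = 0.0377) and *Armcx3*, an outer membrane protein, lower (-0.47, adjusted p = 0.0435). The gene with the next smallest p, *Mfn1*, had 0.12.

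The other transport kinesins showed no call. Besides *Kif1c*, *Kif1b* and *Kif5b*, 6 were tested. *Kif3a*, a heavy chain of the heterotrimeric kinesin-2, was at 18.6 and 19.8 TPM in cell bodies and at 13.9 and 14.3 TPM in protrusions. Its fractions did not overlap, but the log2 fold change of -0.43 did not pass (SE 0.13, limma adjusted p = 0.0972, and 0.0859 with the replicate block). Its partner *Kif3b* was at 16.1, 16.0, 15.7 and 17.4 TPM in the same order, a log2 fold change of 0.04. The ratio of *Kif3b* to *Kif3a* was thus 0.87 and 0.81 in cell bodies and 1.13 and 1.22 in protrusions. *Kif3c*, which can also pair with KIF3A, had a log2 fold change of 0.20, and *Kifap3*, the cargo-binding subunit of kinesin-2, -0.09. Of the endosomal and Golgi carriers of the kinesin-3 family, *Kif13a* had 0.24, *Kif16b* 0.06 and *Kif13b* -0.10.

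The kinesin light chains, which bind cargo for KIF5, were close to 0. *Klc1* took 81.3% to 83.2% of the summed light chain TPM, at 72.6 and 75.1 TPM in cell bodies and at 77.1 and 82.5 TPM in protrusions. The protrusion values lay slightly above, and the log2 fold change was 0.11 (95% interval from -0.17 to 0.39). *Klc2* had a log2 fold change of 0.22, *Klc4* 0.12 and *Klc3*, whose fewest reads were 33, 0.08. Of these 4 and *Kifap3*, 0 of 5 passed limma, with and without the block, 0 had an unadjusted p under 0.05, and limma voom called 0.

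**Figure D3:**
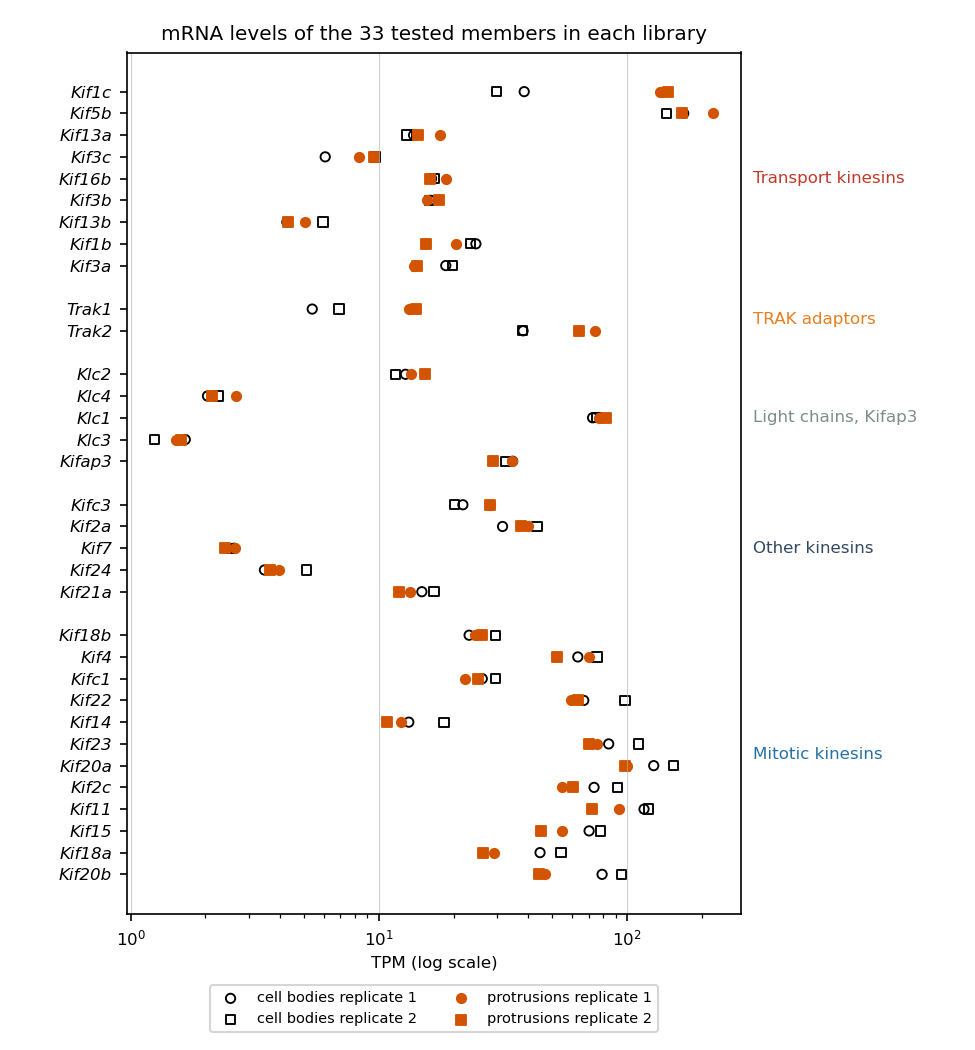
TPM (x axis, log scale) of the 33 tested members (y axis) in each library, with open symbols for cell bodies, filled symbols for protrusions, circles for replicate 1 and squares for replicate 2. *Kif1c*, *Trak1* and *Trak2* have their filled symbols to the right of the open symbols with a wide gap, while in 10 of the 12 mitotic kinesins both filled symbols lie to the left.

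The mitotic kinesins all had log2 fold changes below 0, and 2 of them passed the test. Under the alternatives run, *Kif18b* reached 0.03 with median of ratios scaling, 0.01 with limma voom and 0.12 without cell bodies replicate 2, and *Kif4* reached 0.02 without protrusions replicate 2. All 12 were above 10 TPM in every library and were tested, and in 10 of 12 (83.3%) both protrusion values lay below both cell body values, against 37.0% of all genes. Their median log2 fold change was -0.46, where the median of all genes was -0.07. In replicate 1 the median was -0.28 with 10 of 12 below 0, and in replicate 2 it was -0.65 with 12 of 12 below 0. The 2 called lower by limma were 16.7% (against 4.25% of all genes), and with the replicate block 6 of 12 were (against 13.3%). None was called higher by limma or limma voom, and 0 had an unadjusted p under 0.05 in that direction. As TPM is a share of the RNA in a fraction of many cells, fewer cells that express a gene and less of its RNA per cell cannot be told apart. The fibroblast marker sum, carried by *Pdgfra* and *Col3a1*, was also lower in protrusions, and its part in these shifts was not tested. Of the same list *Col1a1* was higher in protrusions within each replicate and *Dcn* lower. *Lum* was higher in replicate 1 and lower in replicate 2.

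*Kif20b*, whose motor acts in cytokinesis, was at 79.3 and 95.2 TPM in cell bodies and at 46.9 and 44.3 TPM in protrusions. It was the most depleted member, 1.90-fold lower in protrusions (log2 fold change -0.92, SE 0.14, limma adjusted p = 0.0349, and 0.00171 with the replicate block). *Kif18a*, which dampens chromosome movements at the spindle equator, was at 44.6 and 54.1 TPM in cell bodies and at 29.1 and 26.2 TPM in protrusions. It was 1.76-fold lower (log2 fold change -0.82, SE 0.15, limma adjusted p = 0.0403, and 0.00475 with the replicate block). Neither gene's fractions overlapped. Without the protrusion library of replicate 1 the log2 fold changes were -0.96 and -0.89, and neither passed (limma adjusted p = 0.0642 and 0.0785).

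Another 4 mitotic kinesins passed with the block but not without it, at smaller log2 fold changes. *Kif15*, which helps to keep the spindle bipolar, was at 70.3 and 77.9 TPM in cell bodies and at 54.8 and 45.1 TPM in protrusions (log2 fold change -0.57, limma adjusted p = 0.0668, 0.0184 with the block, and 0.0465 by limma voom). *Kif11*, the motor Eg5 that pushes spindle poles apart, was at 117 and 122 TPM in cell bodies and at 92.5 and 72.0 TPM in protrusions (-0.55, adjusted p = 0.0772 and 0.0178). In these 2 genes the protrusion library of replicate 2 was the lowest of all. *Kif2c*, the microtubule depolymerase MCAK, was at 73.6 and 91.7 TPM in cell bodies and at 54.5 and 60.7 TPM in protrusions (-0.51, adjusted p = 0.0872 and 0.0185). *Kif20a* (chromosome 18), which carries the chromosomal passenger complex to the midzone, was at 128 and 154 TPM in cell bodies and at 100 and 98.4 TPM in protrusions (-0.50, adjusted p = 0.0696 and 0.0201). In all 4 genes the protrusion values lay below the cell body values. Scaling by *Ppia* and *Ywhaz* also called *Kif15*, *Kif2c* and *Kif20a*, a mean of at least 5 TPM also *Kif15*, and the GC correction with the block also *Kif2c*.

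The 6 other mitotic kinesins passed in neither design. *Kif14*, *Kif23* and *Kif22* had log2 fold changes of -0.41, -0.41 and -0.40, and *Kifc1*, the minus end-directed motor of the group, -0.23. Fractions overlapped only for the chromokinesin gene *Kif4* (63.3, 75.7, 70.4 and 52.4 TPM in cell bodies 1 and 2 and protrusions 1 and 2, -0.19) and for *Kif18b* (23.1, 29.5, 24.4 and 26.0 TPM, -0.05). *Kif4* was higher in protrusions in replicate 1 and lower in replicate 2. The list thus ran from an almost 2-fold depletion to no detectable shift.

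GC content moved with these values. The transcripts of *Kif18a* (38.3% GC), *Kif20b* (39.4%), *Kif11* (42.2%) and *Kif15* (42.7%) were the most AT-rich of the mitotic kinesins, where the median over genes was 50.0%. After a correction for GC content *Kif20b* still passed (log2 fold change -0.59, limma adjusted p = 0.0482), and *Kif18a* did not (-0.46, adjusted p = 0.0746), although it did with the block as well (adjusted p = 0.0174). Corrected values of *Kif15* and *Kif11* were -0.31 and -0.28, and neither passed with or without the block. The median of the 12 was then -0.34, and 1 was lower, or 5 with the block (*Kif20b*, *Kif18a*, *Kif2c*, *Kif22* and *Kifc1*), where 3.81% and 14.4% of all genes were lower. *Kif1c* (54.5% GC), *Trak1* (54.4%) and *Trak2* (47.5%) changed little, with corrected log2 fold changes of 1.98, 1.04 and 1.00 (limma adjusted p = 0.0344, 0.041 and 0.04), and 3.28% of all genes were higher in that fit. With the correction and the block, *Kif5b* and *Kif2a* joined them, for 5 higher members against 12.5% of all genes.

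**Figure D4:**
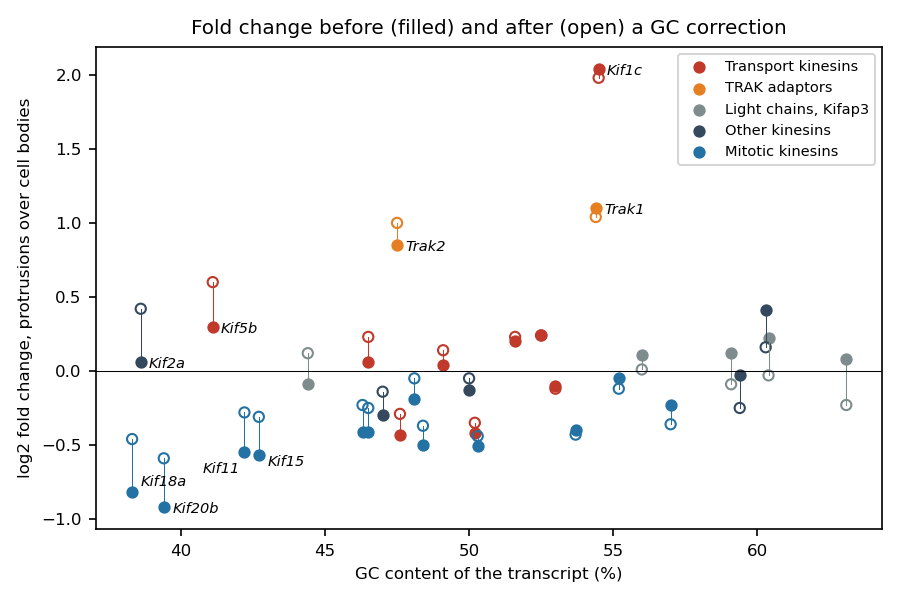
Log2 change from cell bodies to protrusions (y axis) against the GC content of the transcript (x axis, %) for the 33 tested members, before (filled) and after (open) the correction for GC content. The AT-rich mitotic kinesins *Kif18a*, *Kif20b*, *Kif11* and *Kif15* move up by the correction. *Kif2a* (38.6% GC) and *Kif5b* (41.1% GC), at 0.06 and 0.30 before it, move up too, whereas *Kif1c* and *Trak1* stay in place.

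Transport and mitotic kinesins were next set side by side. The 9 tested transport kinesins had a median log2 fold change of 0.06, or 0.05 without *Kif1c*, with 1 higher and 0 lower (2 had an unadjusted p under 0.05 for lower, and limma voom also called 0 lower). By replicate the transport median was 0.22 and -0.01, above the mitotic median of -0.28 and -0.65 in each. The GC correction gave 0.23 for transport and -0.34 for mitotic kinesins. Summed over the 12 genes, transport kinesins were at 307 and 278 TPM in cell bodies and at 457 and 404 TPM in protrusions, and mitotic kinesins at 790 and 957 TPM and at 642 and 595 TPM. Transport kinesins thus made up 22.9% and 18.7% of all the members' TPM in cell bodies and 32.5% and 31.3% in protrusions, and mitotic kinesins 59.0% and 64.2% against 45.7% and 46.1%. Without *Kif1c* the transport sum was 268 and 249 TPM in cell bodies and 321 and 258 TPM in protrusions. In replicate 2 most of the gain in the transport sum was therefore *Kif1c*, and in replicate 1 *Kif5b* added to it. These sums are descriptions, as genes are not replicates.

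Of the 14 other kinesins, 5 were tested and 0 passed (limma, with and without the block), while 1, *Kifc3*, had an unadjusted p under 0.05, and limma voom called 0. *Kifc3*, a minus end-directed motor of adherens junctions and the Golgi, was at 21.8 and 20.2 TPM in cell bodies and at 28.0 TPM in each protrusion library. Its log2 fold change was 0.41 (limma adjusted p = 0.096), and 0.16 after the GC correction. *Kif2a*, a depolymerase of interphase and mitotic cells, had 0.06, *Kif7*, which acts in Hedgehog signaling at the cilium tip, -0.03, *Kif24*, a centriolar depolymerase, -0.13, and *Kif21a*, which restrains microtubule growth at the cortex, -0.30. Counted with the mitotic kinesins, *Kif2a* moved their median to -0.41.

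The 12 members below 1 TPM were not tested. They were *Kif1a*, *Kif5a*, *Kif5c*, *Kif6*, *Kif9*, *Kif17*, *Kif19a*, *Kif21b*, *Kif26a*, *Kif26b*, *Kif27* and *Kifc2*. Many of them are known from neurons or motile cilia. The highest level was 0.382 TPM (*Kif9*), and the most reads of any of them in a library were 28, so differences between fractions were not detectable at this depth.

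The *Kif1c* guides aim at a purine-rich element, so the 3′ UTRs of the other members were searched for the same kind of stretch. For each annotated 3′ UTR the window of 30 bases with the most G or A, among windows with at least 8 G, was taken. Under this rule the 3 members called higher had the 3 richest windows among the 32 tested members with such a 3′ UTR. These windows held 28 G or A bases in *Trak1*, 27 in *Kif1c* and 26 in *Trak2*. *Kif13b* had no annotated 3′ UTR of at least 30 bases in the transcript used and was not searched. No other member searched had over 25 under that rule, and the median over 10402 tested genes was 24. The longest unbroken run of G and A, with no minimum of G, did not set these members apart. It was 28 bases in *Kif3a* (log2 fold change -0.43), 27 in *Trak1*, 19 in *Kif2c* and 18 in *Kif5b*. Without the minimum of 8 G, a window over the *Kif3a* run would hold at least 28 of 30, where its counted window held 23. The order of the windows, with the called members first, therefore rests on that minimum. *Kif1c*, *Trak2*, *Kif16b* and *Kif23* each had 16. The windows are shown to compare their letters, with the longest run of G and A in capitals, and *Kif1b* is added as the relative that was not enriched. They lie at chr9:121474283-121474312 (*Trak1*, plus strand, bases 1284 to 1313 of a 3′ UTR of 1919), chr1:58902771-58902800 (*Trak2*, minus strand, bases 704 to 733 of 3055) and chr4:149180300-149180329 (*Kif1b*, minus strand, bases 439 to 468 of 532).
Trak1: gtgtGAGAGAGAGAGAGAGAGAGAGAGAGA
Trak2: ggagggatttAAGAGGGAAAAAGGGGtaaa
Kif1b: tgggtggtttagagactAAGGGAGGAGAca
*Trak1* has an unbroken GA repeat, *Kif1c* and *Trak2* have shorter runs that mix GA with GGG, and the *Kif1b* window has 22 G or A bases. The *Kif1b*, *Kif3a* and *Klc1* genes as measured reached chr4:149176318, chr11:53604246 and chr12:111807844. By the places of their windows, the 3′ UTRs used for them, of 532, 908 and 458 bases, end short of these positions. The sequence from there to these positions was not searched, so a richer window in it would have been missed, also in *Kif1b*.

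Windows as rich occurred in other genes too, and more often in longer 3′ UTRs. A window at least as rich as that of *Kif1c* was present in 10.8% of the 10402 genes, and in 21.0% of the 1277 genes with a 3′ UTR of similar length. For *Trak1* the shares were 6.1% and 8.0%, for *Trak2* 19.7% and 37.3%, and for the *Kif1b* 3′ UTR searched 74.9% and 64.8%. The 3′ UTR of *Kif1c* and that of *Trak2* are long, at 3085 and 3055 bases against a median of 1059. *Kif3b* had 25 G or A bases and a log2 fold change of 0.04, and *Kif20a* had 25 and -0.50. A match of letters is not a binding site, and whether these stretches act was not tested here.

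**Figure D5:**
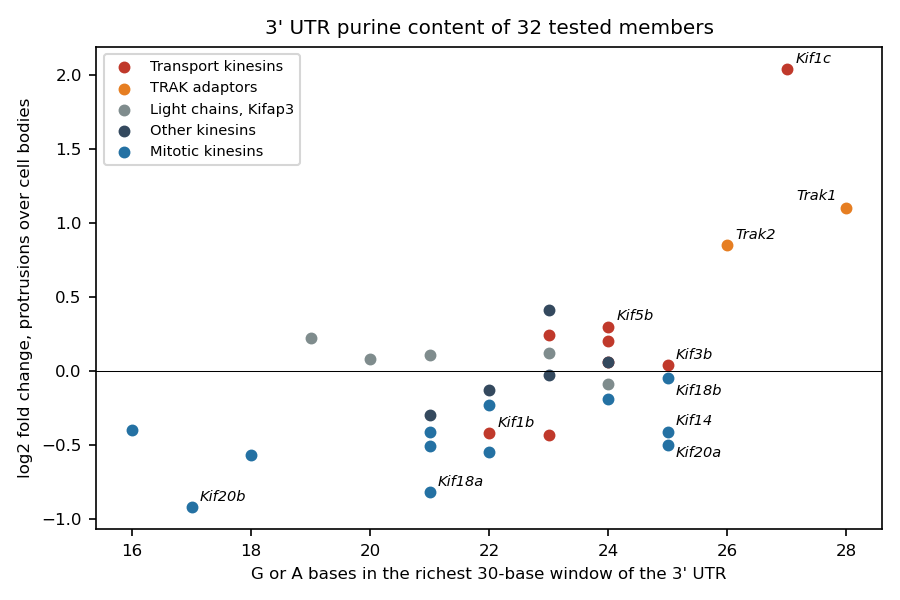
Log2 change from cell bodies to protrusions (y axis) against the G or A bases in the richest 30-base window of the 3′ UTR (x axis). Only windows with at least 8 G were counted, and the 32 tested members are colored by role. *Trak2*, *Kif1c* and *Trak1* lie at 26, 27 and 28 bases and at 0.85 or above, and members at 25 bases or fewer lie between -0.92 and 0.41.

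Genes known to work with the kinesins were read in the same fit. Of 13 tested partners of kinesin-3 motors, 1 was higher and 0 lower by limma (7.69% higher, against 2.99% of all genes), and 1 had an unadjusted p under 0.05 for lower. Limma voom called 4 higher and 0 lower, where 6.82% of all genes were higher. The GC correction also gave 4 higher and 0 lower (against 3.28% higher), and 7 higher and 0 lower with the block (against 12.5%). The median log2 fold change was 0.24, and 0.51 after the GC correction. *Ppfia1* encodes liprin-α1, a scaffold that binds KIF1A. It was at 28.0 and 23.5 TPM in cell bodies and at 63.8 and 53.2 TPM in protrusions (log2 fold change 1.17, limma adjusted p = 0.0342). With the block 5 were higher and 1 lower (38.5% and 7.69%, against 8.08% and 13.3% of all genes). The others higher were *Rab10* (0.41, limma adjusted p with the block 0.036), *Ptpn21*, a phosphatase that binds KIF1C (0.66, 0.0229), *Snx27* (0.50, 0.0418) and the Golgi GTPase gene *Rab6a* (0.49, 0.0206). The lower gene was *Hook3*, whose product links KIF1C to dynein (-0.65, 0.0233), and its corrected log2 fold change for GC content was -0.30. *Apc*, whose product binds mRNAs and microtubule ends, was at 21.3 and 22.7 TPM in cell bodies and at 24.4 and 19.7 TPM in protrusions, a log2 fold change of 0.00.

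Of 16 tested cargo adaptors of kinesin-1, 1 was higher (6.25%, against 2.99% of all genes) and 2 were lower (12.5%, against 4.25%), with a median log2 fold change of -0.22. *Arl8a*, a GTPase that recruits kinesin-1 to lysosomes, was higher (0.75, limma adjusted p = 0.042). *Tor1a*, a chaperone of the endoplasmic reticulum (-0.74, adjusted p = 0.04), and *Ranbp2*, a nucleoporin that binds KIF5B (-1.13, adjusted p = 0.0451), were lower. With the block 2 were higher and 3 lower (12.5% and 18.8%, against 8.08% and 13.3% of all genes). *Mapk8ip1*, the JIP1 scaffold, was then also higher (0.89, limma adjusted p with the block 0.0161) and *Kidins220* lower (-0.88, 0.0076). After the GC correction 1 was higher and 1 lower (against 3.28% and 3.81% of all genes), and 2 and 6 with the block (against 12.5% and 14.4%). The corrected log2 fold change of *Ranbp2* was -0.82, which passed only with the block (limma adjusted p = 0.0543, and 0.0015 with the block). Of 9 cargoes of kinesin-2, 0 passed (limma), 1 in each direction had an unadjusted p under 0.05, and limma voom called 0. Their median was -0.20. *Cdh2*, which encodes N-cadherin, was lower with the block (-0.60, limma adjusted p = 0.127, and 0.013 with the block), and the intraflagellar transport genes *Ift57* and *Ift88* had 0.35 and -0.37.

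Of 15 mitotic partners, 2 were lower (13.3%, against 4.25% of all genes) and 0 higher by limma, and limma voom gave the same counts. For higher, 1 had an unadjusted p under 0.05. With the block 6 were lower (40.0%, against 13.3% of all genes), and the median log2 fold change was -0.21. *Hmmr*, a spindle protein, was at 127 and 136 TPM in cell bodies and at 75.9 and 63.5 TPM in protrusions (-0.91, limma adjusted p = 0.0349). *Cenpe*, the kinesin-7 motor of kinetochores, was at 98.3 and 119 TPM in cell bodies and at 65.6 and 54.7 TPM in protrusions (-0.85, adjusted p = 0.0414). *Prc1*, which bundles midzone microtubules, had -0.48 (adjusted p = 0.0639, and 0.019 with the block). *Tpx2* (-0.53), *Ect2* (-0.45) and *Numa1* (-0.51) were also lower with the block. After the GC correction 0 were higher and 2 lower (against 3.28% and 3.81% of all genes). With the block as well, 0 were higher and 4 lower, *Hmmr*, *Cenpe*, *Tpx2* and *Numa1* (against 12.5% and 14.4%). The corrected log2 fold changes of *Ect2* and *Prc1* were -0.13 and -0.30, and neither passed with or without the block. Other partners had values of either sign, among them *Racgap1*, which forms centralspindlin with KIF23, at 0.29, and *Birc5* at -0.03.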

How the data were processed

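The authors deposited TPM per library for 16537 genes, from stranded single-end reads mapped to mm10. The paper's methods name TopHat 2.0.12, and the submitters' processing notes name STAR, featureCounts and edgeR without versions. The use of strand in counting was not stated. The authors' mean log2 CPM served only to scale reads, and the authors' fold changes and p-values were not used. No per-sample column was left unused.

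Members were matched by gene symbol, and the members and lists were chosen with earlier results of these data known. Members called with or without the block and the *Kif1* genes are given in full, other tested members in short, and of each partner list the called genes and the 3 with the smallest p. *Mir6925*, *Apc*, *Rhot1*, *Rhot2*, *Racgap1*, *Birc5* and the further partners called only with the block were named after their values were seen. *Snph*, *Mapk8ip2*, *Clstn2* and *Bicdl2* were not analysed here.

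Genes with a mean of 1 TPM or more, 11400 in all, entered a two-sided limma test (limma 3.58.1, R 4.3.3) of log2(TPM + 0.5), whose prior variance followed a trend. For genes at low TPM this scale gives fold changes that are too small. With 2 libraries a group the fit had 2 residual and 3.81 prior degrees of freedom, against 1 and 10.2 when replicate numbers were blocked. The supplement of the study pairs the fractions within a replicate, and their deviations from the group means correlated at 0.447 within a number over 11400 genes, so the block was taken as a pairing. Ratios among the 4 TPM values of a gene gave whole reads within 0.01 reads for all 16537 genes, and these gave the depth and a limma voom fit. GC content and 3′ UTRs came from GENCODE vM21 (GRCm38, the assembly of mm10), to which 15710 genes matched by symbol and 652 by synonym. The correction subtracted a smooth fit of log2 values on GC content in each library. The fits were tested on simulated data. Guide sequences came from the study's supplementary tables. The labels call the libraries biological replicates, and nothing more is said of how cultures were kept apart.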

Additional observations from a re-analysis of the deposited data

How the results depend on the processing

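With 2 libraries a group the number of calls depended on how the spread was estimated. Without a filter on TPM and without a trend in the prior variance, 0 members were called in either direction by limma, with 4 higher and 7 lower at an unadjusted p under 0.05 in each, and 0 of all 16537 and of all 11400 genes were called in these fits. Leaving out 1 library, whose group then rests on a lone library assumed to vary like the others, gave 0 to 1 higher and 0 lower. The 1 was *Kif1c* without protrusions replicate 1, and 3 to 4 were higher and 4 to 10 lower at an unadjusted p under 0.05 in these fits. *Kif1c* had an adjusted p of up to 0.162 among all alternatives, at a log2 fold change of 1.86 to 2.22. The other called members lost the call without any 1 of the 4 libraries, with adjusted p from 0.0836 to 0.196 for *Trak1*, 0.0772 to 0.162 for *Trak2*, 0.0642 to 0.163 for *Kif20b* and 0.0785 to 0.202 for *Kif18a*. In 3 of these 4 fits 0 of all 11400 genes were called, and without protrusions replicate 1 14 were higher and 144 lower. The replicate block gave 6 lower, scaling by *Ppia* and *Ywhaz* 5 (where 9.37% of all genes were lower), the GC correction 1, and the GC correction with the replicate block 5 higher and 5 lower. Scaling by *Ppia* and *Ywhaz* moved the median of all genes by -0.135 on the log2 scale, and the transport median to -0.07. The GC correction, with and without the block, moved the transport median from 0.06 to 0.23. The mitotic median stayed below 0, from -0.63 to -0.28. The cause was not tested for any of these.

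Of 490 values of single members under alternatives, 446 stayed on the same side of the threshold, 30 lost the call, 14 gained it and 0 called values changed sign. Over members and partners, 80 values of uncalled genes changed sign. The block changed no other call of a member than those given. For *Kif1c* against *Kif1a* no alternative gave a value, since *Kif1a* had at most 1 read. Depth limits the members below 1 TPM.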
